A study of Homo sapiens with 6 samples.

Results

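The genes described here are 9 interferon-induced antiviral genes of human cells, namely MX1, MX2, RSAD2, IFI6, IFI16, IFI27, IFI35, IFI44 and IFI44L. They were picked by symbol, and each of the 9 symbols matched 1 of the 29889 genes in the deposited count table and 1 of the 29687 genes in the FPKM table. FPKM is a fragment count corrected for transcript length and library size, so that it allows levels of different genes to be compared. The libraries came from A549 cells, an established line of human lung adenocarcinoma, transfected with Lipofectamine 2000. Cells were harvested 48 h after transfection, a time that the labels tie to RT-qPCR and Western blotting and the study's methods to the experiments in general. The CELF6-OE group received a pIRES-hrGFP-1a plasmid carrying the RNA-binding protein CELF6, and the Control group received the empty plasmid, with 3 replicates in each group. Every library is a bulk culture after transient transfection, the share of transfected cells is not given in the sources used here, and all 6 libraries share the same cell line and the same transfection reagent. In bulk RNA, fewer cells that express a gene and less RNA per cell cannot be told apart.

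Interferons are secreted when a cell senses foreign nucleic acid. They bind receptors on the same or nearby cells, and the receptor-bound kinases activate STAT factors that enter the nucleus with IRF9 and bind the interferon-stimulated response element (ISRE) in the promoters of antiviral genes. MX1 and MX2 encode dynamin-like GTPases that block viral ribonucleoproteins and capsids, and RSAD2 encodes viperin, a radical SAM enzyme that makes a chain-terminating nucleotide. IFI6 and IFI27 encode small hydrophobic membrane proteins of 1 family. IFI16 encodes a nuclear sensor of DNA, IFI35 encodes a leucine zipper protein that pairs with NMI, and IFI44 and IFI44L are neighbouring paralogs.

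The promoters of these genes are shown first, because the ISRE is the sequence through which interferon is known to act on them. Promoter windows were taken from RefSeq on GRCh38.p14 and ran from 250 bases before to 50 bases after each annotated start, a gene with several starts having several windows. Windows were found for 8 of the 9 genes, all but MX2. The core of the ISRE was searched as GAAA, any 2 bases and GAAA again on both strands, so that a pair of TTTC with the same spacing is the motif read on the other strand, and overlapping matches were counted. A match was present in at least 1 window of 6 of the 8 genes, and in 1195 of all 27305 genes with a window (4.38%). Per window, 9 of 14 held a match and 4 of 14 held 2 or more, against 3.57% and 0.259% of all 35116 windows. The windows of IFI27 overlap and hold the same cores, as do those of IFI44. Windows are therefore not independent, and these sites were counted repeatedly. No window of IFI16 or IFI35 held these letters. A second motif, TTCNNNGAA, was found in windows of 3 of the 8 genes (IFI27, IFI35 and MX1) and of 9.38% of all genes. It overlaps the first motif in IFI27 and MX1 and not in IFI35. A match of letters is a description and does not show binding.

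The stretches that hold the matches follow, read 5′ to 3′ in the direction of the gene, with the ISRE core in capitals. Positions are counted from the annotated start of the window, whose first transcribed base is position 1.
IFI6, minus strand, chr1:27672256-27672368, cores starting at -156, -115 and -93: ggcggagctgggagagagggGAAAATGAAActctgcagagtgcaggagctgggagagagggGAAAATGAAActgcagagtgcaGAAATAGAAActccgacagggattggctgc
IFI44L, plus strand, chr1:78620264-78620404, cores starting at -164 and -73: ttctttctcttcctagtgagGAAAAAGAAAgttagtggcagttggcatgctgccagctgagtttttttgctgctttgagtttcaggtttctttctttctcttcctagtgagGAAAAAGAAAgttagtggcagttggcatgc
IFI44, plus strand, chr1:78649751-78649800, core starting at -18 or -60 of 2 annotated starts: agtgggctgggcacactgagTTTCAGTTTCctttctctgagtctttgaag
IFI27, plus strand, chr14:94110608-94110670, cores starting at -108 and -95 of 1 annotated start and at -187 and -174 of the other: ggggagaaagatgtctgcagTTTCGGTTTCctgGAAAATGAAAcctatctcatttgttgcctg
RSAD2, plus strand, chr2:6877612-6877661, core starting at -145: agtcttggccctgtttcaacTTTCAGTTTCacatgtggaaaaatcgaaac
MX1, plus strand, chr21:41420549-41420598, core starting at 12: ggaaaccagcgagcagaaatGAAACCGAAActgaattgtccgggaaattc
IFI6 and IFI27 carried several cores close together. Windows of 2 of the 3 annotated starts of MX1 held a core, each a different site, GAAACCGAAA (shown) and TTTCTCTTTC (not shown). The overlap of MX1 with the second motif lies at the core that is not shown. The core of RSAD2 was found at 1 of 2 starts. The windows of the remaining MX1 start and the other RSAD2 start held GAAA or TTTC pairs with 1 base between. The search did not count such pairs. IFI44 and RSAD2 carried the same 10 letters, TTTCAGTTTC. In IFI44L the repeated core lies in a longer stretch that is itself repeated.

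Each library held between 33748328 and 37920700 counts on genes. CELF6 itself, the check of the labels, had 18646, 20789 and 11571 counts in CELF6-OE replicates 1 to 3 and 0 counts in every Control library. Replicate 3 thus carried the least CELF6 of the CELF6-OE libraries. Among the 936 genes called lower in CELF6-OE, replicate 3 was the highest of the 3 CELF6-OE libraries for 70.5%. For this reason the counts of calls and the pair ratios are also given without this library. All 5 epithelial markers looked up (KRT7, KRT8, KRT18, KRT19 and EPCAM) were detected and none was called. Their log2 fold changes were all below 0, with a median of -0.36. KRT8 (-0.47), KRT18 (-0.36) and KRT19 (-0.22) had an adjusted p below 0.05 in edgeR's quasi-likelihood test, and KRT7 and EPCAM did not. Of 10 leukocyte markers, 4 (CD2, CD3D, CD3E and NKG7) were not listed in the count table, PTPRC and MS4A1 had at most 2 counts in any library, and CSF1R had at most 8. The summed level of the leukocyte list was 8.22 to 10.8 CPM (counts per 1e6 counts) in CELF6-OE and 8.97 to 10.3 CPM in Control, mostly from CD14 and ITGAM, of which ITGAM was called lower. The part of these cells in the results was not tested.

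All 9 genes were down-regulated in CELF6-OE, and for each of them every CELF6-OE library lay below every Control library. The share of all genes tested that separate in this way was not counted, so the separation is a description. Calls required p below 0.01 together with a 1.5-fold difference in edgeR's quasi-likelihood test of 15847 genes. By this rule 9 of 9 were called lower and 0 higher, against a background of 5.91% of all genes tested called lower. The log2 fold changes lay between -2.40 for MX2 and -1.20 for IFI35. Their median was -1.52, beside 0.011 for all genes tested and -1.01 for the 936 genes called lower. The largest changes were those of MX2, IFI27 and RSAD2, 4.33-fold to 5.29-fold lower, and the other 6 genes were 2.30-fold to 2.93-fold lower. Whether these form separate sets was not tested. Adjusted p lay between 3.81e-05 and 0.000329 in this test with Benjamini-Hochberg adjustment, and reached at most 0.00303 under the alternatives tried. Without CELF6-OE replicate 3 the 9 genes were all still called, with log2 fold changes between -2.82 and -1.43.

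**Figure D1:**
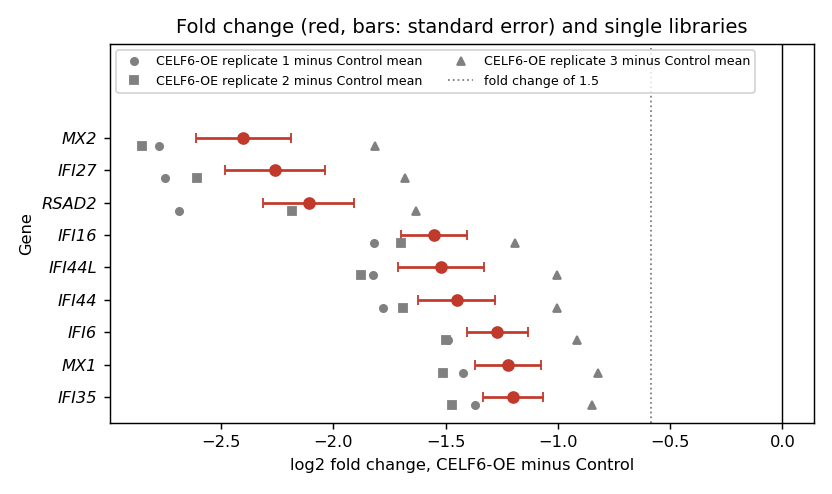
The log2 fold change of each gene (red point, horizontal axis) is plotted with its standard error, and grey symbols give the log2 CPM of single CELF6-OE libraries minus the Control mean. All 9 estimates and all 27 single-library values lie to the left of the dotted line for a fold change of 1.5, with MX2, IFI27 and RSAD2 farthest out.

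The MX genes stand side by side on the plus strand of chromosome 21 of GRCh38, MX2 from 41361999 to 41409393 and MX1 from 41420020 to 41470071 in GENCODE v44. MX1 (ENSG00000157601.13), whose protein acts on influenza viruses in the cytoplasm, had an FPKM of 94.15, 90.07 and 144 in CELF6-OE replicates 1 to 3 and of 247, 253 and 248 in Control replicates 1 to 3. The Control libraries of MX1 were nearly level, and CELF6-OE replicate 3 stood above the other two. Its log2 fold change was -1.22 (standard error 0.15), a 2.33-fold decrease with an adjusted p of 0.000246. MX2 (ENSG00000183486.12), whose protein acts on retroviral capsids at the nuclear envelope, had an FPKM of 3.58, 3.46 and 7.03 in CELF6-OE and of 24.65, 24.81 and 23.34 in Control. MX2 thus lay far below MX1 in Control and had the lower fold change, with a log2 value of -2.40 (standard error 0.21), a 5.29-fold decrease with an adjusted p of 3.81e-05. An antisense transcript (ENSG00000228318) overlaps MX1 and had 4 to 24 counts per library, and the reads of the overlapping TMPRSS2 numbered at most 3.

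IFI6 and IFI27 were the most abundant of the 9 genes. IFI6 (ENSG00000126709.14, minus strand of chromosome 1, 27666064 to 27672212), whose protein is known to block the replication of flaviviruses, had an FPKM of 1062, 1076 and 1597 in CELF6-OE and of 2866, 2962 and 3010 in Control. In the Control libraries it ranked 19 or 20 among all listed genes by FPKM, and in CELF6-OE between 45 and 69. The log2 fold change of IFI6 was -1.27 (standard error 0.14), with an adjusted p of 0.000112. IFI27 (ENSG00000165949.12, plus strand of chromosome 14, 94104836 to 94116695), a related mitochondrial and nuclear membrane protein, had an FPKM of 222, 249 and 470 in CELF6-OE and of 1486, 1456 and 1484 in Control. Its Control values differed by a coefficient of variation of only 1.1%, whereas CELF6-OE replicate 3 was far above replicates 1 and 2. IFI27 fell by 2.26 on the log2 scale (standard error 0.22), a 4.80-fold decrease with an adjusted p of 6.60e-05, and moved from rank 47 to 51 in Control to rank 150 to 275 in CELF6-OE.

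RSAD2, the viperin gene (ENSG00000134321.11, plus strand of chromosome 2, 6865557 to 6898239), had an FPKM of 1.45, 2.09 and 3.04 in CELF6-OE and of 10.79, 9.46 and 7.72 in Control. These values rest on 185, 273 and 378 counts in CELF6-OE and on 1438, 1312 and 1072 counts in Control. The groups did not overlap, and RSAD2 had the largest coefficient of variation of the 9 genes in Control, at 16.5%. Its log2 fold change was -2.11 (standard error 0.20), with an adjusted p of 5.47e-05. CMPK2, a nucleotide kinase gene that overlaps RSAD2 on the opposite strand, was called lower too, with counts of 1056, 1044 and 1770 in CELF6-OE against 4622, 4164 and 3799 in Control. The libraries were directional, but the strand setting of the counting is not given in the sources used here, so reads of the overlapping part may not be told apart.

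IFI16, the DNA sensor (ENSG00000163565.18, plus strand of chromosome 1, 158999968 to 159055155), had an FPKM of 8.31, 9.19 and 12.94 in CELF6-OE and of 32.50, 30.84 and 24.25 in Control. Control replicate 3 was the lowest of its group and still well above CELF6-OE replicate 3. The log2 fold change of IFI16 was -1.55 (standard error 0.15), with an adjusted p of 5.20e-05. IFI35 (ENSG00000068079.7, plus strand of chromosome 17, 43006740 to 43014456) had an FPKM of 158, 150 and 229 in CELF6-OE and of 393, 410 and 410 in Control. It showed the smallest change of the 9, -1.20 on the log2 scale (standard error 0.13), with an adjusted p of 0.000151. Neither of these genes held the ISRE core in the windows searched, as defined with 2 bases between the GAAA pair. A window of each held a GAAA pair with 1 base between, which was not counted.

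The paralogs IFI44L and IFI44 lie next to each other on the plus strand of chromosome 1, from 78619902 to 78646145 and from 78649796 to 78664078. Both encode cytoplasmic proteins with antiviral activity. IFI44 (ENSG00000137965.10) had an FPKM of 18.67, 20.23 and 32.23 in CELF6-OE and of 71.62, 65.04 and 54.39 in Control. IFI44L (ENSG00000137959.15) had an FPKM of 2.17, 2.13 and 3.87 in CELF6-OE and of 8.65, 7.76 and 6.53 in Control. In both genes CELF6-OE replicate 3 was the highest of its group and Control replicate 3 the lowest of its own. The log2 fold changes were -1.45 for IFI44 (standard error 0.17, adjusted p 0.000207) and -1.52 for IFI44L (standard error 0.19, adjusted p 0.000329), within 1 standard error of each other.

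The levels of the 9 genes spanned a wide range in each group. Mean FPKM in Control was 2946 for IFI6, 1475 for IFI27, 404 for IFI35, 249 for MX1, 63.7 for IFI44, 29.2 for IFI16, 24.3 for MX2, 9.32 for RSAD2 and 7.65 for IFI44L. The SD over the 3 Control libraries was 73.6 for IFI6, 16.3 for IFI27, 9.46 for IFI35, 3.16 for MX1, 8.69 for IFI44, 4.36 for IFI16, 0.806 for MX2, 1.54 for RSAD2 and 1.06 for IFI44L. Neighbours in this order did not overlap between libraries except IFI16 with MX2 and RSAD2 with IFI44L. In CELF6-OE the order was the same down to MX2, and RSAD2 took the last place. Mean FPKM there was 1245 ± 305 for IFI6, 314 ± 136 for IFI27, 179 ± 43.6 for IFI35, 109 ± 30.1 for MX1, 23.7 ± 7.42 for IFI44, 10.1 ± 2.46 for IFI16, 4.69 ± 2.03 for MX2, 2.72 ± 0.993 for IFI44L and 2.19 ± 0.800 for RSAD2 (SD, n = 3). The ranges of IFI27 and IFI35, of MX2 and IFI44L, and of IFI44L and RSAD2 overlapped in this group. IFI27 stood 3.65 times above IFI35 in Control and 1.75 times above it in CELF6-OE.

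**Figure D2:**
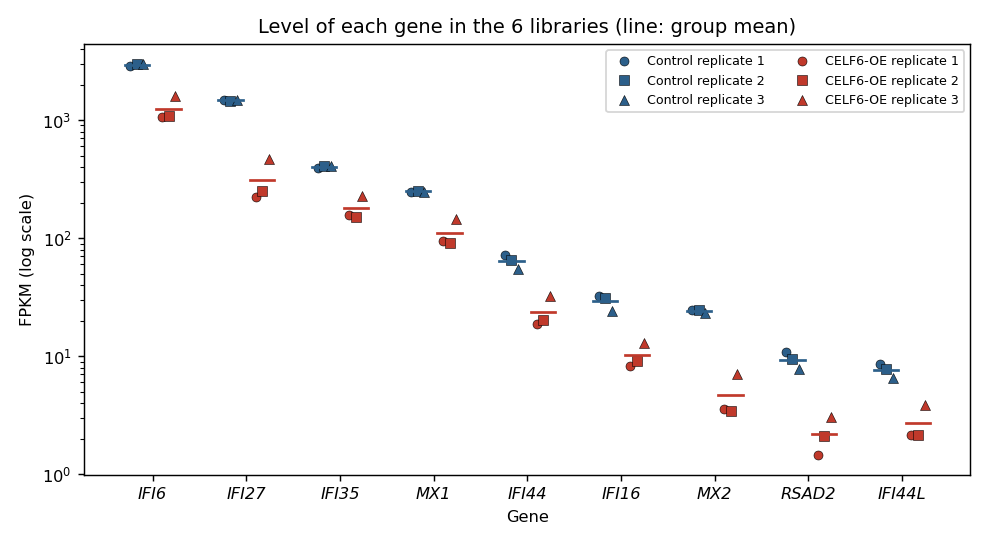
FPKM on a log axis is plotted for each gene in the 3 Control (blue) and 3 CELF6-OE (red) libraries, the symbol giving the replicate and the line the group mean. Within every gene the red points lie below the blue ones, and the red triangle of replicate 3 is the highest red point.

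Together the 9 genes took 0.580% to 0.588% of all counts in the Control libraries and 0.184%, 0.186% and 0.291% in CELF6-OE replicates 1 to 3. In TMM-scaled CPM the sum was 5933 ± 206 in Control and 2179 ± 605 in CELF6-OE (SD, n = 3), a 2.72-fold difference. IFI6 and IFI27 made up 66.5% to 67.9% of the sum in Control and 62.5% to 63.9% in CELF6-OE, so the sum mostly follows these genes.

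The CELF6-OE replicates were not alike. In replicates 1 and 2 the 9 genes kept between 13.8% and 38.6% of their mean Control CPM, with medians of 28.2% and 30.6%, whereas in replicate 3 they kept between 28.4% and 56.6%, with a median of 49.7%. Replicate 3 was the highest CELF6-OE library for 9 of 9 genes. On the log2 CPM scale its excess over the mean of replicates 1 and 2 was 0.57 to 1.0, the largest being in MX2 and IFI27, and the median was 0.73. The same excess had a median of 0.31 over the 936 genes called lower and of 0.00 over all genes tested. CELF6 was lower in replicate 3 than the mean of replicates 1 and 2, by a log2 CPM difference of -0.71. With 3 libraries, whether the level of CELF6 and the level of these genes move together was not tested.

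**Figure D3:**
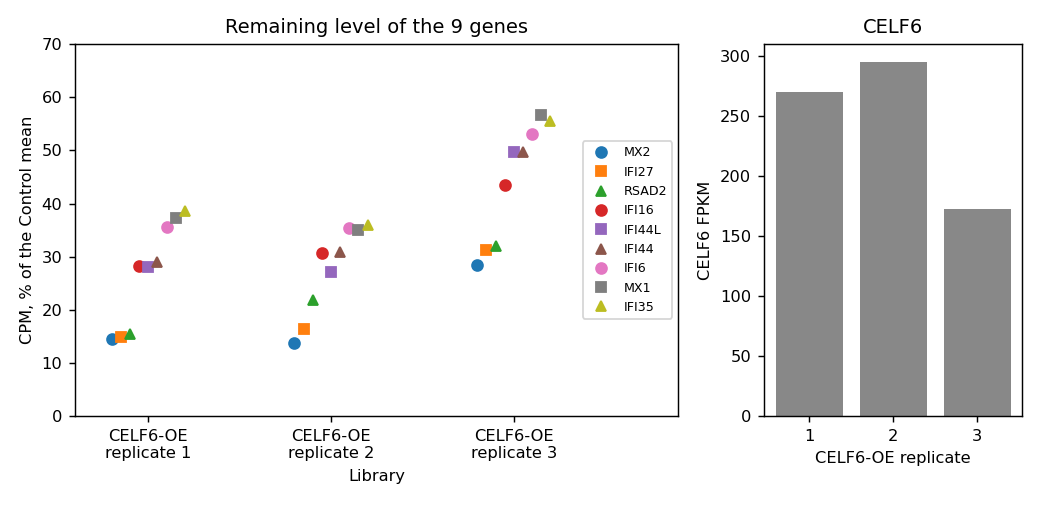
The left panel plots, for each CELF6-OE library, the CPM of the 9 genes as a percentage of their Control mean, and the right panel gives the FPKM of CELF6 in the same libraries as bars from 0. MX2, IFI27 and RSAD2 are the lowest 3 symbols in every library, and in replicate 3, which had the lowest CELF6 bar, all 9 symbols sit higher than in replicates 1 and 2.

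The Control replicates divided the 9 genes in another way. RSAD2, IFI16, IFI44 and IFI44L were lowest in Control replicate 3, with log2 CPM differences of -0.33, -0.33, -0.27 and -0.27 from the mean of replicates 1 and 2. In TMM-scaled CPM the other 5 genes were lowest in Control replicate 1 and differed by only -0.03 to 0.10 in replicate 3. The order of these 5 depends on the scale. MX2 had 76.7 CPM in Control replicate 1 and 76.79 in replicate 3. In FPKM, MX2 was lowest in Control replicate 3 and IFI27 in Control replicate 2. The coefficient of variation of FPKM over the Control libraries was 13.7% to 16.5% for the first set and 1.1% to 3.32% for the second. Among all genes tested, 8 in 10 had a difference between -0.43 and 0.29 in Control replicate 3, so the first set stood inside the ordinary spread of that library. Without Control replicate 3 every gene was still called.

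Related genes could be compared within each library, where depth plays no part. MX1 had 34.9, 34.6 and 27.2 times the CPM of MX2 in CELF6-OE replicates 1 to 3 and 13.3, 13.5 and 14.1 times in Control. The log2 ratio was therefore 5.00 ± 0.20 in CELF6-OE and 3.77 ± 0.042 in Control (SD, n = 3), a difference of 1.23. IFI27 had 0.200, 0.222 and 0.281 times the CPM of IFI6 in CELF6-OE and 0.496, 0.470 and 0.471 times in Control, a log2 difference of -1.05. Neither ratio overlapped between the groups (two-sided exact permutation test, p = 0.10 each, the smallest that 3 against 3 allows, and 0.15 after adjustment over the 3 pairs). IFI44 had 2.47, 2.73 and 2.39 times the CPM of IFI44L in CELF6-OE and 2.38, 2.41 and 2.39 times in Control. This log2 ratio moved by 0.08, with an SD of 0.099 in CELF6-OE and 0.0088 in Control (two-sided exact permutation test, p = 0.30). The shifts of the first 2 ratios were thus larger than the spread between libraries, and that of IFI44 to IFI44L was not. Without CELF6-OE replicate 3 the log2 differences were 1.35 for MX1 to MX2, -1.19 for IFI27 to IFI6 and 0.12 for IFI44 to IFI44L.

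**Figure D4:**
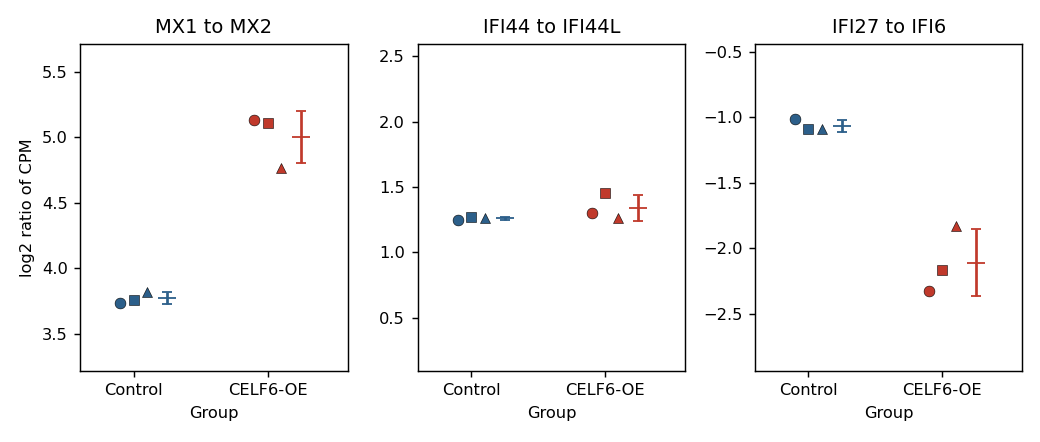
Each panel plots the log2 ratio of the CPM of 2 related genes in the single libraries of Control (blue) and CELF6-OE (red), with the mean and SD beside them, and all panels span the same height of the log2 scale. The MX1 to MX2 ratio is higher and the IFI27 to IFI6 ratio lower in all CELF6-OE libraries, while the IFI44 to IFI44L ratios overlap.

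The family relatives and partners of these genes gave a mixed picture. Of 11 looked up, 8 were tested, 2 were called lower and 0 higher, and their median log2 fold change was -0.22. Without CELF6-OE replicate 3, 3 relatives were called lower. The ones called were NMI, the binding partner of IFI35, at -1.19 (standard error 0.13), and CMPK2, which overlaps RSAD2, at -1.62 (standard error 0.18). The constitutive dynamins, relatives of the MX GTPases, were not called, with log2 fold changes of 0.07 for DNM1, -0.30 for DNM2, 0.14 for DNM3 and 0.10 for DNM1L. Of these, DNM2 had an adjusted p of 0.0206 in edgeR's quasi-likelihood test, with a difference short of 1.5-fold. IFI27L1, a paralog whose gene ends 990 bp before IFI27, had a value of -0.58, just short of the fold change threshold, with an adjusted p of 0.00480, and was called under 5 alternatives. IFI27L2 had a value of -0.14. The relatives of IFI16 (AIM2, MNDA and PYHIN1) had at most 5 counts in any library and were not tested.

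The nearest tested gene on either side of each of the 9 that does not overlap it was looked up in GENCODE v44, at distances from 151 bp to 2642069 bp, so that CMPK2, which overlaps RSAD2, is not among them. Of the 14 such neighbours that are not among the 9, 3 were called lower and 1 higher, and their median log2 fold change was -0.10. Those called lower had few reads. NRIR, a long non-coding RNA 25093 bp from RSAD2 known as a negative regulator of the interferon response, was counted 1, 2 and 3 times in CELF6-OE and 18 times in each Control library. ACKR1, a chemokine receptor gene 149720 bp from IFI16, was counted 0, 1 and 2 times in CELF6-OE, against 41, 25 and 30 times in Control. GRASLND, a non-coding RNA on the other side of RSAD2, had 16 to 19 counts in CELF6-OE and 30 to 36 in Control. VAT1, whose annotated end lies 151 bp from IFI35, was called higher at 0.67 (standard error 0.082), opposite to IFI35. BACE2, 79469 bp from MX2 (-0.46), and RPL27, 3781 bp from IFI35 (-0.06), were not called, though BACE2 had an adjusted p of 0.00245 in edgeR's quasi-likelihood test.

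Upstream in the pathway, the 4 ligand genes looked up were all called lower, and most receptor chains and kinases were not called. Of 21 interferon signalling genes looked up, 20 were tested, 10 were called lower and 0 higher, and the median log2 fold change was -0.57. The log2 fold changes of the ligand genes were -3.08 for IFNB1, -3.17 for IFNL1, -3.12 for IFNL2 and -3.15 for IFNL3, IFNL2 and IFNL3 being near-identical copies whose reads may be divided. Among the receptor chains IFNGR1 was called lower (-0.59), and IFNAR1 (0.10), IFNAR2 (-0.28), IFNLR1 (-0.38), IL10RB (-0.40) and IFNGR2 (-0.29) were not. The kinases JAK1 (0.08), JAK2 (-0.49) and TYK2 (-0.21) were not called either. Of the transcription factors STAT2 (-1.01), IRF1 (-1.09) and IRF7 (-0.88) fell and IRF3 (-0.15) was not called, and of the inhibitors USP18 (-1.02) and SOCS1 (-0.99) fell and SOCS3 (-0.55) was not called. Not being called does not mean unchanged. IFNAR2, IL10RB, IFNGR2 and SOCS3 had an adjusted p below 0.05 in edgeR's quasi-likelihood test, with differences short of 1.5-fold. IRF9 was listed with at most 2 counts in every library and was not tested. These counts alone do not show whether the cells lack IRF9. In CELF6-OE replicates 1 to 3 the ligand counts were low and differently ordered, with 11, 36 and 22 for IFNB1, 59, 70 and 68 for IFNL1, 34, 59 and 65 for IFNL2 and 27, 45 and 87 for IFNL3. In Control replicates 1 to 3 they were 206, 231 and 180 for IFNB1 and 558, 609 and 705 for IFNL1. Control counts were 427, 491 and 529 for IFNL2 and 397, 537 and 553 for IFNL3. Without CELF6-OE replicate 3, 10 signalling genes were called lower.

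Of 35 other interferon-induced antiviral genes, all were tested, 24 were called lower and 0 higher, and the median log2 fold change was -1.13. Without CELF6-OE replicate 3, 28 were called. BST2 (tetherin), IFITM1 (a blocker of viral entry) and IFIT2 (a binder of viral RNA) had values of -2.81, -2.77 and -2.69, beyond that of MX2. At the other end EIF2AK2 (protein kinase R, -0.17), HERC6 (-0.25) and IFIT5 (-0.27) were not called, though HERC6 had an adjusted p of 0.0283 in edgeR's quasi-likelihood test. The promoters of this list held the ISRE core in 20 of 28 genes with a window (71.4%). This list and the others were chosen with earlier results of these data known, so their counts are a description.

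**Figure D5:**
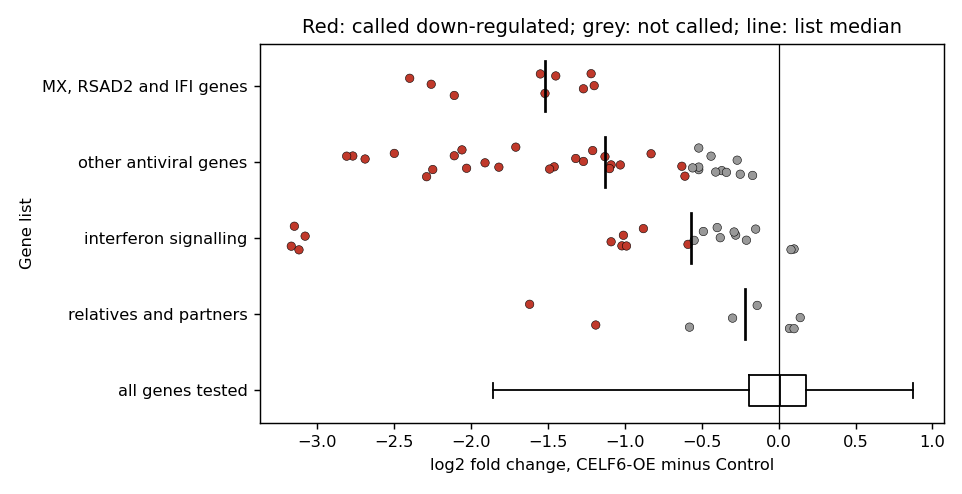
The log2 fold change (horizontal axis) of every tested gene is plotted by gene list, red where called lower and grey where not called, with a black line at the list median. The box for all genes tested spans -0.19 to 0.18 with whiskers at the 1st and 99th percentiles (-1.86 and 0.88), and the 9 MX, RSAD2 and IFI genes lie between -2.40 and -1.20.

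The genes with the most similar profiles were found by the root mean square difference of log2 CPM, taken relative to the Control mean, from the median profile of the 9 genes over 6 libraries. Among 13185 other genes with a mean CPM of at least 1, the nearest were PSMB8 (an immunoproteasome subunit, 0.0693), BTN3A3 (a butyrophilin, 0.0709), SEPT4 (a septin, 0.0761), BATF2 (an AP-1 type transcription factor, 0.0821) and TMEM140 (a transmembrane protein, 0.0854). Of the 9 genes themselves IFI44 was nearest to their median (0.0934) and MX2 farthest (0.697). The median profile of the CELF6-OE libraries was -1.82, -1.70 and -1.0 in order of their number, and that of PSMB8 was -1.68, -1.67 and -1.05, again with replicate 3 highest.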

How the data were processed

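RNA-seq of 3 CELF6-OE and 3 Control libraries was used, with each library's group and number taken from the labels. Quality trimming by the authors used FASTX-Toolkit, and TopHat2 placed the reads on GRCh38, of which those with a unique location were kept. They deposited read counts per gene (whole numbers, not normalized) and FPKM values rounded to 2 decimals, and all columns were used. The counting tool and annotation release are not given in the sources used here. Unique alignment can lower the counts of genes with near-identical copies.

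Counts of the 15847 genes kept by filterByExpr (minimum count 10) were scaled by TMM and tested with edgeR 4.0.16 (R 4.3.3, glmQLFit and glmQLFTest, prior count 0.125) with Benjamini-Hochberg adjustment. Calls required p below 0.01 and a 1.5-fold difference. The study states this rule and also one with an adjusted p below 0.05, which was an alternative. Standard errors were the fitted log2 coefficient divided by the square root of the F statistic. Without the filter the prior degrees of freedom were infinite, against 7.15 with it. Log2 ratios within a library used CPM and an exact permutation test (SciPy 1.17.1). Alternatives were RLE factors, total count, other filters, DESeq2 1.42.0, limma-voom (limma 3.58.1), other thresholds, a replicate block, a prior count of 2, FPKM and leaving out each library.

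The genes and lists were chosen with earlier results of these data known. All 9 genes were named by rule, and other genes from lists, as neighbours or by profile. Precision is limited by 3 libraries a group. The edgeR p-values set each difference against the spread between these libraries, moderated across genes.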

Additional observations from a re-analysis of the deposited data

How the results depend on the processing

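The 9 MX, RSAD2 and IFI genes were called lower under each of the scalings, filters, tests and thresholds tried and without each library in turn. Over the alternatives their log2 fold changes kept their sign in 135 of 135 values, and each value with a test stayed past the threshold. On the log2(mean FPKM + 1) scale, which has no test and pulls genes of low FPKM towards 0, RSAD2 was at -1.69 and IFI44L at -1.22. Leaving out 1 library gave log2 fold changes of -2.82 to -2.22 for MX2, -2.68 to -2.07 for IFI27, -2.43 to -1.89 for RSAD2 and -1.47 to -1.09 for MX1. The IFI44 to IFI44L difference reversed to -0.18 on the log2(FPKM + 1) scale, so its sign depends on the scale. Counts of called genes in the lists stayed within 1.5 times the reported ones in 75 of 75 alternatives. Relatives called lower were 2 or 3, the third being IFI27L1.

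The replicate number is shared by the groups, but same-numbered libraries did not deviate together over 15847 genes (correlations of 0.00339, -0.00718 and -0.0643), so the main test had no replicate block. With the replicate block, 9 of the 9 genes, 24 other antiviral, 10 interferon signalling and 2 relative genes were called lower, as without it, and the pair differences were 1.23, 0.08 and -1.05. With 3 libraries a group, the exact tests of the pair ratios cannot pass 0.05. Counts from 185 upward stand behind each of the 9 genes, whereas several neighbours and relatives rest on few reads. The ligand genes had few reads in CELF6-OE and more in Control.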
